A study of Mus musculus with 574 samples.

Results

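The report concerns 9 genes of haematopoietic stem and multipotent progenitor cells, Adgrg1, Angpt1, Selp, Myct1, Procr, Msi2, Hlf, Flt3 and Ctla2a, among 46078 gene rows of single-cell read counts. They were picked by name because their summed reads had been seen to be higher on day 8 than on day 0, so levels on those days are given as a description, and no test of them is read as a result. The cells were granulocyte/macrophage progenitors (GMPs) from the bone marrow of C57Bl/6 wild-type mice 6 to 12 weeks old, after a single injection of 5-fluorouracil (5-FU) at 150 mg/kg. 5-FU kills dividing cells and is followed by regrowth of the marrow. Single cells negative for lineage markers and Sca-1 and positive for c-Kit, CD34 and FcγR were sorted 1 to a well for Smart-seq2 sequencing, which covers the whole transcript. There was 1 set of cells each for days 0, 10, 12 and 14 and 2 sets for day 8. The protocol names PBS as the control injection, but the treatment label of every set, day 0 included, is 5-FU, so whether the day 0 mice were injected is not given.

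Stem cells and multipotent progenitors stand at the top of blood formation and keep a transcriptional programme that is switched off as cells commit to a lineage. GMPs lie below them and give rise to neutrophils and monocytes. Several of the genes are known as markers of the most immature cells: Procr encodes the endothelial protein C receptor, Adgrg1 the adhesion receptor GPR56, and Hlf a transcription factor of the PAR bZIP family. Flt3, a receptor tyrosine kinase, marks multipotent progenitors on their way to the lymphoid and myeloid lineages more than it marks the stem cells with the longest output.

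Kept cells had a minimum of 50000 reads in genes and 1000 genes detected. They numbered 92 for day 0, 90 and 93 for the day 8 sets, 93 for day 10, 85 for day 12 and 47 for day 14. Median depth was 79451 reads on day 14 and 145092 to 289938 elsewhere, and the summed sets held 4849678 to 30691997 reads. The labels do not say that the 2 day 8 sets came from separate mice, and the p-values rest on the spread of those 2 sets alone, which may be technical. Xist stood at 180 and 156 CPM (reads divided by library size and TMM factor) on days 0 and 12 and at 0.108 to 1.66 CPM in the other sets, and the Y-linked Eif2s3y at 0.781 and 1.11 CPM against 55.4 to 83 CPM. The animals of days 0 and 12 were thus female and the others male, and day cannot be told apart from sex, plate or bone preparation. Of the genes of the gate, summed over all kept cells, Cd34 stood at 353 to 583 CPM, Kit at 52 to 102 CPM and Fcgr3 at 106 to 363 CPM, while Ly6a, the Sca-1 gene, stood at 3.84 to 13 CPM. A list of 8 endothelial and stromal genes, checked because several of the 9 genes are also active in vessels, summed to 79.4 to 133 CPM. Most of it was Pecam1 (43.3 to 74 CPM) and Emcn (18.6 to 66.9 CPM), which blood progenitors also express, while Cdh5, the defining gene of endothelium, stood at 0 to 0.240 CPM. A megakaryocyte and platelet list of 7 genes summed to 16.3 to 46.1 CPM. Of its genes, Ppbp had 1 read on day 0 and none in the other sets, Pf4 went from 0 reads on day 0 to 70 and 64 reads on day 8, and Itga2b from 8.23 CPM to 13.9 and 33.3 CPM. The edgeR quasi-likelihood test called both Pf4 and Itga2b higher on day 8 than on day 0 (adjusted p = 0.00386 and 0.0285). They were 2 of the 4 genes of the list that were tested, and Pf4, with 0 reads on day 0, could only be called higher. The part of the genes of this list in the levels of the 9 was not tested. Summed reads of a set cannot separate fewer cells with a gene from less RNA per cell, so shares of cells are given beside them.

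The levels below are sums over the kept cells of a set. Adgrg1 stood at 133 CPM on day 0, 315 and 282 CPM in the day 8 sets, 143 CPM on day 10, 134 CPM on day 12 and 71.1 CPM on day 14. Both day 8 sets lay above every other set, and day 14 lay lowest. Per kilobase of exon it was also the most abundant of the 9 genes on day 8, at 55 CPM per kb against 20.2 for Ctla2a, 7.21 for Angpt1, 4.51 for Flt3, 3.25 for Myct1, 2.67 for Selp, 1.79 for Msi2, 1.13 for Hlf and 1.12 for Procr.

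Angpt1 encodes angiopoietin-1, the ligand of the receptor Tie2. It stood at 17 CPM on day 0, 38.7 and 36.4 CPM in the day 8 sets, 7.52 CPM on day 10, 39.5 CPM on day 12 and 2.00 CPM on day 14. The order of days was thus broken for Angpt1: day 10 lay below day 0, and day 12 stood at 105% of the day 8 mean, or at 65.1% when every cell was thinned to 50000 reads. Its receptor gene Tek had 0 reads on days 0 and 14 and stood at 0.468 to 0.873 CPM elsewhere.

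Selp encodes P-selectin, an adhesion molecule of platelets and endothelium that binds the ligand made from Selplg. Selp stood at 1.02 CPM on day 0, 9.69 and 13.9 CPM in the day 8 sets, 13.6 CPM on day 10, 4.02 CPM on day 12 and 2.74 CPM on day 14. Day 10 lay within the range of the day 8 sets, so Selp stayed up for longer than Adgrg1 or Angpt1. Selplg stood at 146 to 299 CPM throughout and was lowest in the second day 8 set.

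Procr, the rarest of the 9 genes, stood at 0.120 CPM on day 0, 1.34 and 3.21 CPM in the day 8 sets, 0.827 CPM on day 10, 0.349 CPM on day 12 and 0 CPM on day 14. These values rest on 2, 44, 89, 23, 6 and 0 reads. The 2 day 8 sets differed from each other by more for Procr than for any other of the 9 genes, with an SD of 0.89 on the log2 scale.

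Flt3 had 10.3 CPM on day 0, 21.6 and 34 CPM in the day 8 sets, 10.7 CPM on day 10, 9.14 CPM on day 12 and 16.7 CPM on day 14. The day 8 sets lay highest, and day 14 lay above days 10 and 12. Msi2, an RNA-binding protein that sustains stem cell self-renewal, had the same shape in these sums: 5.83 CPM on day 0, 14.1 and 23.2 CPM in the day 8 sets, 9.14 CPM on day 10, 8.97 CPM on day 12 and 18 CPM on day 14. The antisense gene Gm26597 lies over Flt3 and had 35, 42, 1, 7, 5 and 1 reads in the order of days and sets, and counting did not separate strands. For Msi2 the day 14 level lay between those of the 2 day 8 sets. When every cell was thinned to 50000 reads, day 14 stood at 66.5% of day 8 for Msi2 but at 32.7% for Flt3. A single cell held 41.8% of the Flt3 reads of day 14.

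Hlf stood at 3.36 CPM on day 0, 7.12 and 7.94 CPM in the day 8 sets, 4.39 CPM on day 10, 9.32 CPM on day 12 and 1.75 CPM on day 14. Myct1, which stands for MYC target 1, stood at 5.95 CPM on day 0, 9.44 and 9.06 CPM in the day 8 sets, 6.15 CPM on day 10, 13.1 CPM on day 12 and 0.499 CPM on day 14. For both genes day 12 stood highest in these sums, but when every cell was thinned to 50000 reads it stood at 83.4% of day 8 for Hlf and at 51.2% for Myct1. A single cell held 159 of the 225 Myct1 reads of day 12, or 70.7%, and with the richest cell of each set left out the day 12 level of Myct1 was 50.3% of that on day 8 in place of 142%.

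Ctla2a encodes a small protein like the propeptide of cathepsins that inhibits cysteine proteases. It went from 0.841 CPM on day 0 to 37.2 and 47.8 CPM in the day 8 sets, then to 11.9 CPM on day 10, 9.55 CPM on day 12 and 0.749 CPM on day 14. This was the widest fold range among the 8 of the 9 genes that had reads in every set. Its close relative Ctla2b stood at 2.16 CPM on day 0, 6.54 and 13.6 CPM in the day 8 sets, 2.66 CPM on day 10, 0.641 CPM on day 12 and 0 CPM on day 14. Of the 2341 stretches of 50 bases in Ctla2a transcripts, 268 (11.4%) also occur in Ctla2b, so the split of reads between the pair is uncertain.

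Promoter windows from RefSeq (GRCm38.p6, 250 bases before to 50 after a start) were matched by symbol for 8 of the 9 genes. Those of Ctla2a, Myct1 and Selp are printed, because Ctla2a was read more often in day 8 cells with Myct1 or Selp than in those without, as the pairs described further on show. They are given 5′ to 3′ on the strand of the gene, with the GATA motif GATAA, searched on both strands, in capitals.
Ctla2a, chr13:60936576-60936875, minus strand: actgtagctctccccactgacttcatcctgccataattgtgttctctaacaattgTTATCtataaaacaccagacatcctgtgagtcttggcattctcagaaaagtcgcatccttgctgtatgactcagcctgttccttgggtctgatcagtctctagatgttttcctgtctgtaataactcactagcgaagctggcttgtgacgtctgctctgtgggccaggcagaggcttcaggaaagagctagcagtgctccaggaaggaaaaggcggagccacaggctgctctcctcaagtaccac
Myct1, chr10:5593478-5593777, plus strand: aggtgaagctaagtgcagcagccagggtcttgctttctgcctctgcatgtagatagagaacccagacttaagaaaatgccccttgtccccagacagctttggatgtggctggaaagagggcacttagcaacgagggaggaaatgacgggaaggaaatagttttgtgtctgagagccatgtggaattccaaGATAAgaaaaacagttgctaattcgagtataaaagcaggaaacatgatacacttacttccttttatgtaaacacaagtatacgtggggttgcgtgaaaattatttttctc
Selp, chr1:164115014-164115313, plus strand: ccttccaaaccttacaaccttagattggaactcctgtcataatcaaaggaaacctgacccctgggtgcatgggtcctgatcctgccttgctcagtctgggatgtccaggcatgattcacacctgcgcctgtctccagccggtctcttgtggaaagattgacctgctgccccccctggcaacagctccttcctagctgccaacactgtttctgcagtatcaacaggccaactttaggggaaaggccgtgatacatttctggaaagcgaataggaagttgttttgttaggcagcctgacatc
GATAA was found in 25.4% of 32851 windows, and among the 8 genes in those of Ctla2a and Myct1. The ETS motif CGGAAG was found in 16.9% of all windows and in that of Procr, and the RUNX motif TGTGGT in 16.8% and in none of the 8. The MEIS motif TGACAG was found in 19.2% of windows and in those of Selp and of a second Ctla2a start. The PAR bZIP motif, TTACGTAA or TTACATAA, was found in 1.06% of windows and in that of Myct1. A match describes these letters only.

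**Figure D1:**
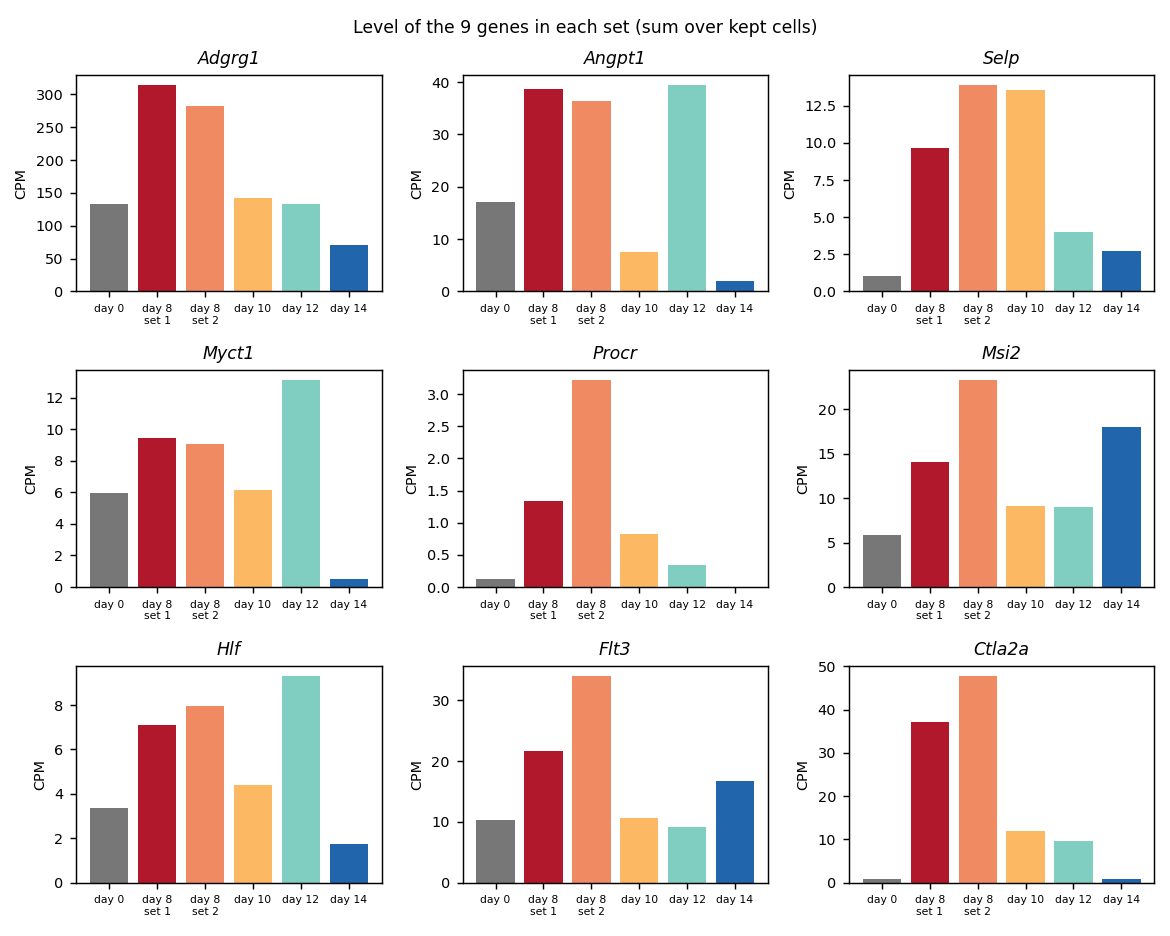
Level of each of the 9 genes in CPM (TMM-scaled, summed over the kept cells of a set), 1 bar per set. Every panel has its own vertical axis from 0. Both day 8 bars are above all others for Adgrg1, Procr, Flt3 and Ctla2a, while Angpt1, Myct1 and Hlf are highest on day 12, which for these 3 genes was not so after thinning.

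On the log2 scale the genes that were chosen by this contrast stood higher on day 8 than on day 0 by 5.65 (SE 0.55) for Ctla2a, 3.52 (SE 0.68) for Selp, 1.68 (SE 0.48) for Msi2, 1.43 (SE 0.42) for Flt3, 1.16 (SE 0.27) for Adgrg1 and 1.14 (SE 0.36) for Angpt1. For Hlf the difference was 1.16 (SE 0.64) and for Myct1 0.64 (SE 0.56), both under 2 SE. Procr had only 2 reads on day 0, and its ratio of day 8 to day 0 was 18.3 with a 95% counting interval of 4.97 to 153. The edgeR quasi-likelihood test across all genes called 7 of the 9 higher at an adjusted p under 0.05, against 2.61% of 15145 tested genes called higher and 3.02% called lower, and since this contrast picked the genes nothing is read from that count. The 2 genes not called were Myct1 and Hlf.

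Shares of cells were taken after thinning every kept cell at random to 50000 reads, so that total reads are equal. Median genes per cell still differed, with 5143, 5867, 5828, 5519, 5152 and 4700 in the order of days and sets, and the 12 day 14 cells with none of the 9 genes had a median of 2513. The part of these differences in the shares was not tested. Reads are PCR copies without molecular identifiers, and the intervals cover counting error only. Ctla2a differed most between day 0 and day 8: it had a read in 4 of 92 day 0 cells (4.35%, exact 95% interval 1.20 to 10.8%), in 44 of 90 and 44 of 93 day 8 cells (48.9%, 38.2 to 59.7%, and 47.3%, 36.9 to 57.9%), and then in 21.5% by day 10, 4.71% by day 12 and 2.13% by day 14. The share on day 12 was thus near that of day 0, on 4 cells each, but another random thinning gave 9.41% against 4.35%, and thinning to 100000 reads gave 12.3% against 4.35%. In the summed reads, 1 cell held 43.9% of the Ctla2a reads of day 12. Without thinning, the shares for Ctla2a were 5.43, 57.8, 59.1, 29, 11.8 and 2.13% in the order of days and sets.

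Adgrg1 was read in most cells of every set but day 14, with 66.3% on day 0, 83.3 and 93.5% in the day 8 sets, 77.4% by day 10, 56.5% by day 12 and 42.6% by day 14. Angpt1 was read in 22.8% of day 0 cells, 38.9 and 43% in the day 8 sets, 7.53% by day 10, 22.4% by day 12 and 10.6% by day 14, so that the low value of day 10 was seen in cells as well as in summed reads. The share on day 12 (counting interval 14 to 32.7%) was near that of day 0, while the summed level of day 12 was at that of day 8. For Angpt1 the counting intervals were 3.08 to 14.9% on day 10 and 28.8 to 49.7% and 32.8 to 53.7% in the day 8 sets. They treat cells as independent and leave out the spread between mice, so they do not compare days. Without thinning, Adgrg1 was read in 73.9, 94.4, 96.8, 87.1, 68.2 and 44.7% of cells and Angpt1 in 27.2, 51.1, 55.9, 18.3, 29.4 and 10.6%.

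Selp was read in 2 of 92 day 0 cells (2.17%), in 12.2 and 26.9% of day 8 cells, 15.1% of day 10 cells, 5.88% of day 12 cells and 4.26% of day 14 cells. Msi2 was read in 18.5% on day 0, 34.4 and 44.1% in the day 8 sets, 22.6% by day 10, 22.4% by day 12 and 36.2% by day 14. Flt3 was read in 16.3% on day 0, 26.7 and 25.8% in the day 8 sets, 17.2% by day 10, 11.8% by day 12 and 8.51% by day 14. For Flt3 the day 14 share was thus the lowest of all sets while its summed level was not, and 1 cell held 41.8% of the 67 Flt3 reads of day 14.

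Hlf, Myct1 and Procr were read in few cells of any set. Hlf was read in 13% of day 0 cells, 15.6 and 22.6% in the day 8 sets, 15.1% by day 10, 17.6% by day 12 and 2.13% by day 14. Its counting intervals were 0.0539 to 11.3% on day 14 and 14.6 to 32.4% in the second day 8 set, and they do not compare days. Myct1 was read in 10.9, 18.9, 20.4, 12.9, 9.41 and 2.13% of cells in the same order. Procr was read in 1 day 0 cell, 2 and 4 day 8 cells, 2 cells each on days 10 and 12, and 0 of 47 cells on day 14, which allows a share of up to 6.38%. Without thinning, Selp was read in 5.43 to 32.3% of cells over the sets, Msi2 in 37 to 75.3%, Flt3 in 10.6 to 41.9%, Hlf in 10.6 to 43%, Myct1 in 4.26 to 36.6% and Procr in 0 to 10.8%.

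**Figure D2:**
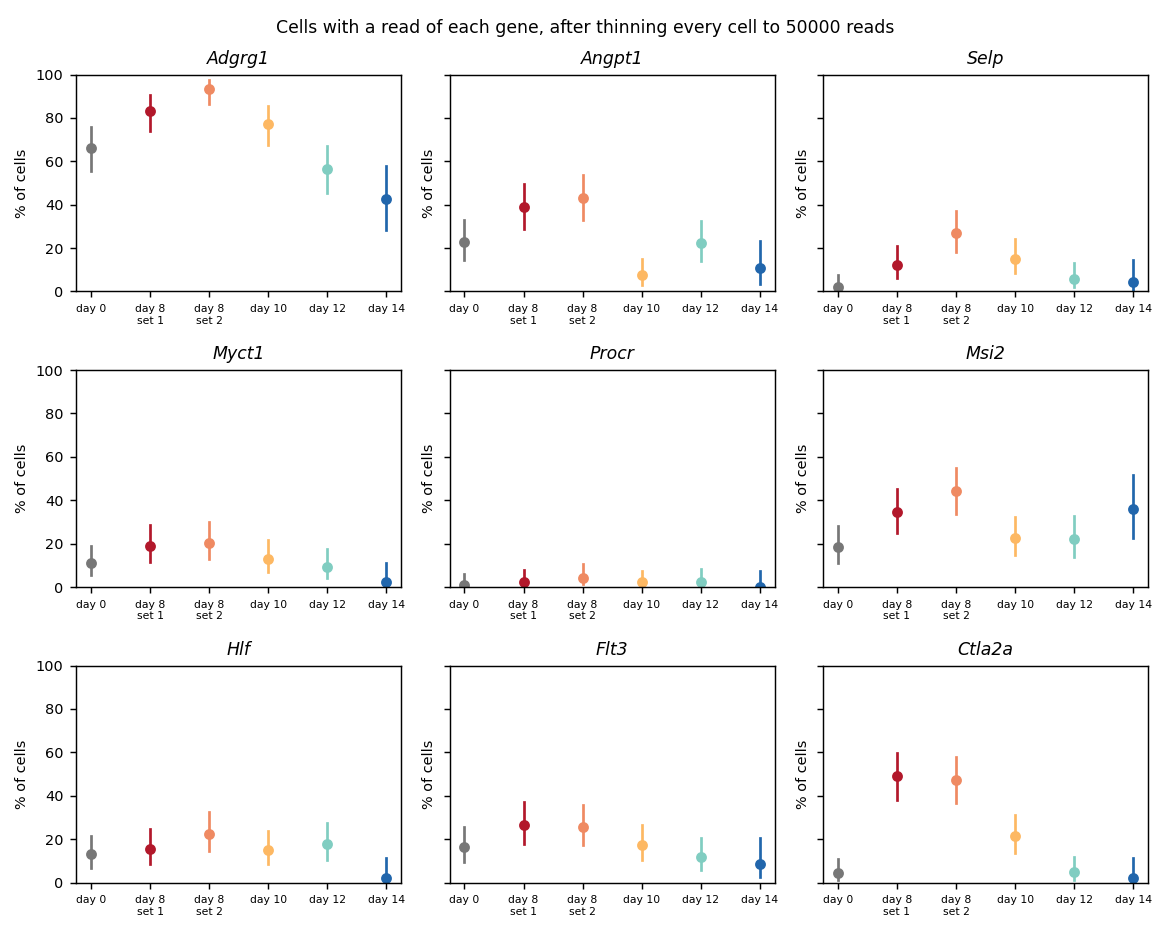
Share of kept cells with a read of each gene after thinning to 50000 reads. Points are 1 set each and lines are exact 95% binomial intervals. Ctla2a goes from 4.35% on day 0 to 48.9 and 47.3% on day 8, while the points of Hlf lie between 2.13 and 22.6%.

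Several of the genes were read in the same day 8 cells. A cell of day 0 held a read of 1.55 of the 9 genes on average, against 2.81 and 3.28 in the day 8 sets, 1.91 on day 10, 1.53 on day 12 and 1.09 on day 14. At least 3 of the genes were read in 21 of 92 day 0 cells (22.8%), 46 of 90 (51.1%, 40.3 to 61.8%) and 59 of 93 (63.4%, 52.8 to 73.2%) day 8 cells, 24 of 93 day 10 cells (25.8%), 15 of 85 day 12 cells (17.6%) and 4 of 47 day 14 cells (8.51%). At this depth the counting intervals of day 10 (17.3 to 35.9%) and day 0 (14.7 to 32.8%) overlapped, but they treat cells as independent. When cells were thinned to 100000 reads, the shares were 48.1% on day 10 and 29% on day 0. The highest number in 1 cell was 8, in the second day 8 set, and 4 on day 0. At full depth the shares with at least 3 genes were higher in every set, at 33.7, 76.7, 90.3, 50.5, 40 and 17% in the order of days and sets.

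**Figure D3:**
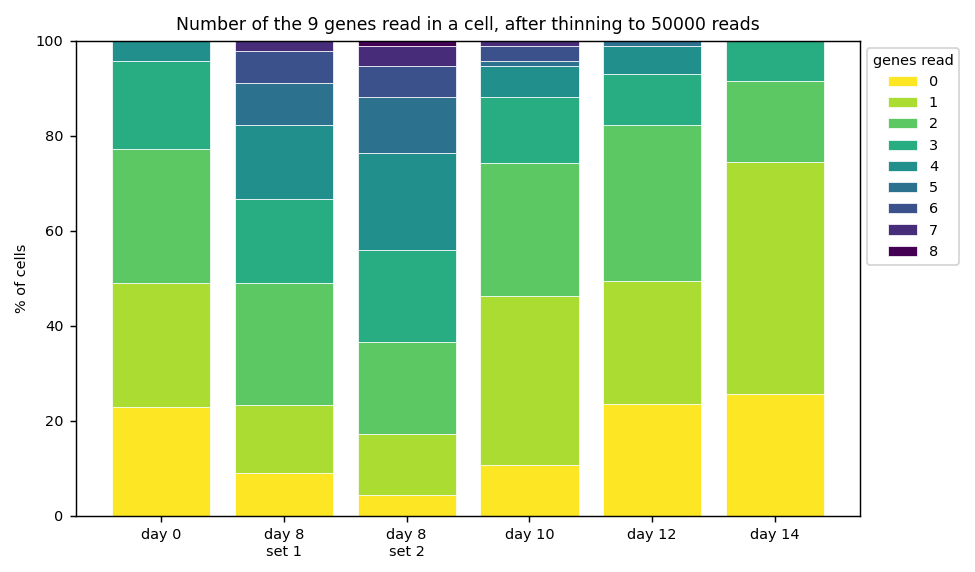
Number of the 9 genes with a read in a cell after thinning to 50000 reads, as the share of cells of each set. Cells with at least 3 genes make up 51.1 and 63.4% of the day 8 sets and 22.8% of day 0.

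Within each day 8 set the genes were then taken in pairs. Of 36 pairs, 20 were read together more often than apart in both sets. This means that cells with the one gene had the other more often than cells without it. Only 1 pair, Procr with Ctla2a, was read together less often in both. Pairs read together more often numbered 28 and 27 when each set was taken singly, but also 28 among the cells of day 10. They numbered 17, 18 and 9 by days 0, 12 and 14. The count thus did not set day 8 apart from day 10, and no such count was made for other genes. The count of day 14 is limited by few reads. Procr was not read there, so its pairs had no value. Selp was read in 2 of the 47 cells and Myct1, Hlf and Ctla2a in 1 each, which leaves little room for pairs. Angpt1 and Ctla2a were the clearest pair. Ctla2a was read in 77.1% of the cells with Angpt1 and in 30.9% of those without in the first set, and in 80 against 22.6% in the second, with 27 and 32 cells that held both. All 35 and all 40 cells with Angpt1 also held Adgrg1.

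Myct1 and Selp followed Angpt1 and Ctla2a. Myct1 was read in 37.1% of cells with Angpt1 and 7.27% of those without in the first set, and in 40 against 5.66% in the second. Ctla2a was read in 81.8% of cells with Selp and 44.3% of those without in the first set, and in 80 against 35.3% in the second. Ctla2a was read in 70.6% of cells with Myct1 and 43.8% of those without in the first set, and in 73.7 against 40.5% in the second. Most cells with Ctla2a had no read of the rarer gene: of the 44 in each set, 12 and 14 held Myct1 and 9 and 20 held Selp. Selp itself was read in 20 against 7.27% of cells with and without Angpt1 in the first set and in 45 against 13.2% in the second. Angpt1, Ctla2a, Myct1, Selp and the near-ubiquitous Adgrg1 were therefore read in partly overlapping cells in both sets.

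The pairs of Flt3 and Hlf were weaker and less steady. Ctla2a was read in 58.3% of cells with Flt3 and 45.5% of those without in the first set, and in 45.8 against 47.8% in the second, so that the sign differed. Hlf was read more often with Selp in both sets, in 54.5 against 10.1% of cells in the first and in 32 against 19.1% in the second, on 6 and 8 cells with both. Procr was read in too few cells for a share: both of its cells in the first set held Msi2 and none held Ctla2a, and of the 4 in the second set all held Hlf, 3 held Flt3 and 1 held Ctla2a. Another random thinning gave 27 of 36 pairs read together more often in both sets, so the weaker pairs depend on which reads are drawn.

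**Figure D4:**
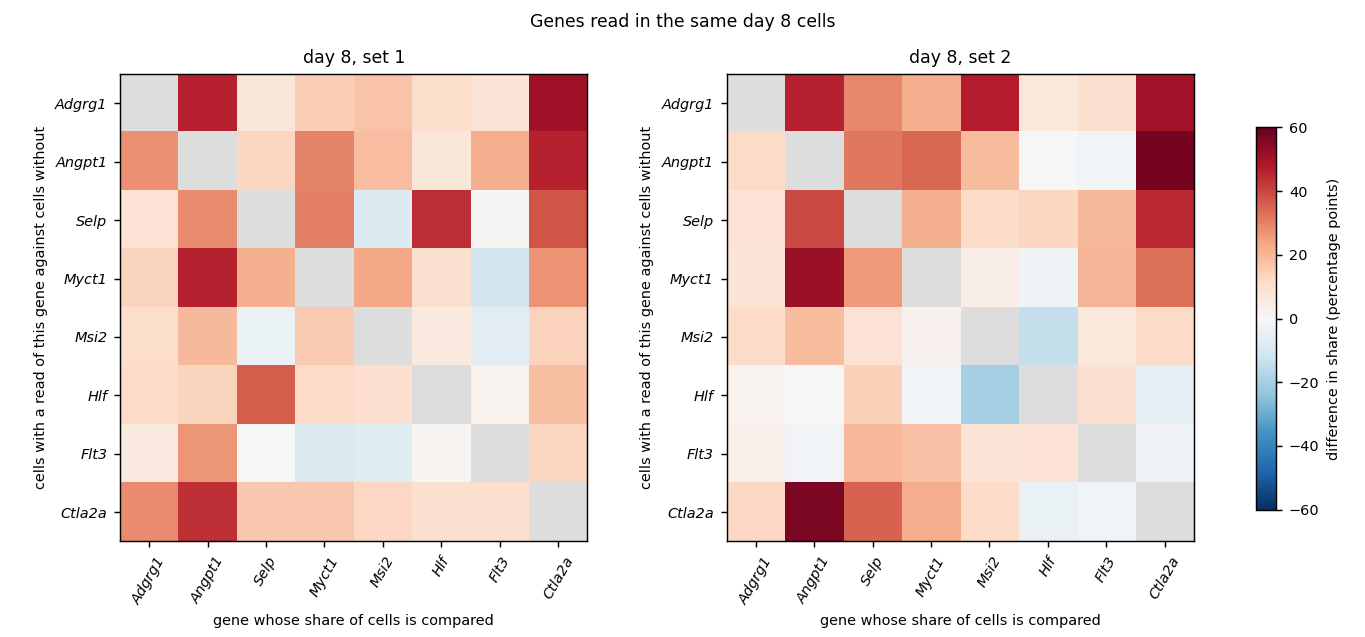
Difference in the share of cells with the column gene between cells with and without the row gene, in percentage points, for the 2 day 8 sets after thinning to 50000 reads. Grey squares mark a gene with itself, and Procr is left out because 2 and 4 cells held it. The squares that join Angpt1 and Ctla2a are dark red in both sets, with 77.1 against 30.9% and 80 against 22.6% of cells with Ctla2a.

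The day 8 cells with at least 3 of the 9 genes had fewer reads of neutrophil granule genes. The granulocyte list (Elane, Mpo, Prtn3, Ctsg, Cebpe, Gfi1, Fcnb and Gstm1) summed to 45730, 50948, 45418 and 23417 CPM in cells with 0, 1, 2 and at least 3 of the genes in the first day 8 set, and to 51585, 42027, 41624 and 17630 CPM in the second. The drop lay between the cells with 2 and those with at least 3 genes, and the same list summed to 84469 and 60001 CPM in those classes on day 0. The monocyte list of 8 genes went down more evenly, from 5945 to 1798, 1090 and 277 CPM in the first set and from 2230 to 825, 540 and 362 CPM in the second.

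Markers of other lineages went the other way. The erythroid list, led by Car2, summed to 5.00, 18.5, 47.8 and 290 CPM over the same classes in the first set and to 10, 20, 173 and 365 CPM in the second. The mast cell and basophil list summed to 103, 168, 690 and 1075 CPM in the first set and to 240, 153, 567 and 626 CPM in the second. The megakaryocyte list summed to 36.5 CPM in cells with at least 3 genes against 5.00 to 13 CPM in the other classes of the first set, and to 85.1 against 3.33 to 37.8 CPM in the second. Lists of 21 other stem surface genes and 22 stem transcription factors were also highest in cells with at least 3 genes: the former summed to 2476 and 2919 CPM there against 943 and 915 CPM in cells with none. These classes hold 8, 13, 23 and 46 cells in the first set and 4, 12, 18 and 59 in the second, so the first of them is small. The median number of genes per cell after thinning was alike, from 5747 to 5919 in the first set and from 5814 to 6129 in the second, while the median ratio of gene reads to spike-in reads was 73.3 and 66.6 in cells with at least 3 genes against 82.2 to 91.4 in the other classes.

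Single genes split the same cells in different ways. Elane, the neutrophil elastase gene, stood at 597 CPM in cells with Angpt1 and 3752 CPM in cells without in the first day 8 set, and at 977 against 4292 CPM in the second. Gata2, a transcription factor of stem, mast and megakaryocyte cells, stood at 191 against 9.82 CPM in cells with and without Angpt1 in the first set and at 190 against 30.2 CPM in the second. Summed over the Angpt1 cells, Elane was thus lower and Gata2 higher, and the erythroid list stood at 384 against 22.9 CPM and 550 against 55.5 CPM. Whether the same single cells had low Elane and high Gata2 was not tested. The mast cell and basophil list of 7 genes, which holds Gata2, was also higher, at 1614 against 215 CPM in the first set and 926 against 243 CPM in the second. Cells with Ctla2a showed the same direction for Gata2, at 145 against 19.1 CPM and 141 against 60.4 CPM, but the mast cell and basophil list did not differ in a steady way, at 1053 against 478 CPM and 520 against 551 CPM.

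Flt3 cells differed from these. They too had less Elane, at 1236 against 2994 CPM in the first set and 1146 against 3465 CPM in the second. Gata2, however, was lower in cells with Flt3, at 34.2 against 97.3 CPM and 63.3 against 111 CPM, and so was the erythroid list, at 142 against 171 CPM and 83.3 against 332 CPM. The lymphoid list of 8 genes summed to 30.8 against 9.70 CPM in cells with and without Flt3 in the first set and to 99.2 against 11.3 CPM in the second, on 24 cells with Flt3 in each. This was not particular to Flt3. The lymphoid list was also higher in both sets with Adgrg1, at 17.3 against 5.33 CPM and 34.9 against 20 CPM. With Msi2 it stood at 16.8 against 14.6 CPM and 62 against 11.9 CPM. With Angpt1 it was higher in the first set, at 25.7 against 8.73 CPM, and lower in the second, at 13 against 49.8 CPM. Over all cells of the second set, Dntt alone made up 31.3 of the 39.8 CPM of this list, and Il7r had 3 reads in each set. Selp cells had low Elane, at 473 against 2811 CPM and 1323 against 3434 CPM, with no steady difference in the erythroid list, at 175 against 162 CPM and 118 against 323 CPM. For Hlf the granulocyte list was lower in cells with the gene in the first set, at 25700 against 36713 CPM, and higher in the second, at 31050 against 25667 CPM.

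Fcgr3, part of the gate, was lower in cells with Ctla2a, at 83.6 against 182 CPM and 63.2 against 184 CPM, and in cells with Flt3, at 46.7 against 165 CPM and 59.2 against 150 CPM. Cd34 was higher in cells with Ctla2a, at 785 against 429 CPM and 682 against 397 CPM. In the sum over all cells Fcgr3 fell by 1.41 on the log2 scale from day 0 to day 8 (SE 0.25, edgeR quasi-likelihood adjusted p = 0.000174).

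**Figure D5:**
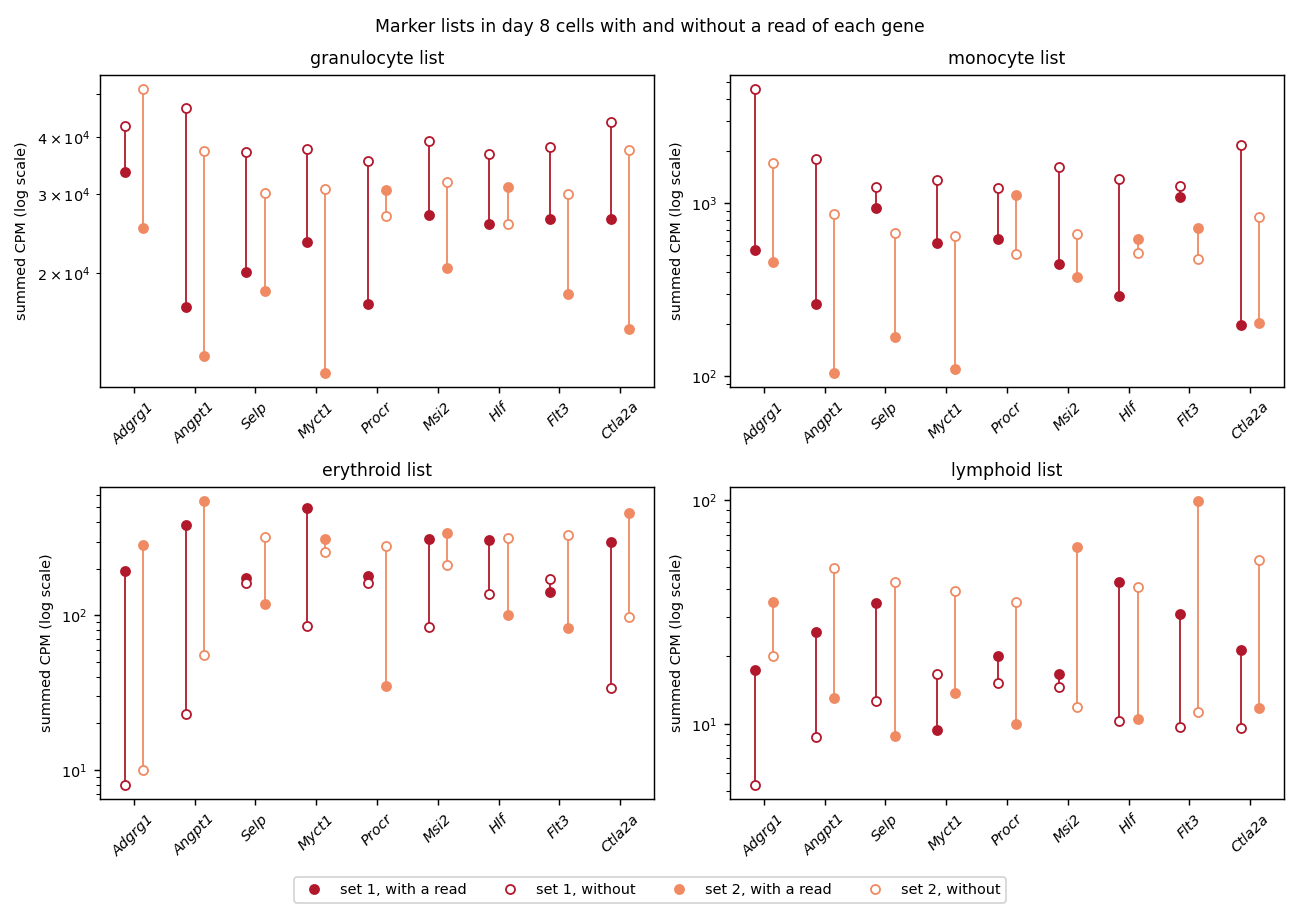
Summed CPM of 4 marker lists, on a log scale, in day 8 cells with (filled) and without (open) a read of each gene, after thinning. Angpt1, Ctla2a and Adgrg1 cells had less of the granulocyte and monocyte lists and more of the erythroid list in both sets. Flt3 cells had less of the erythroid list. The lymphoid list was higher in both sets in cells with Flt3, and also in cells with Adgrg1 or Msi2.

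Across the cells of a day 8 set, the genes most like the 9 were ranked by Pearson's r between their log2 thinned counts and the sum over the 9, among 8428 genes. The 9 were not scaled before summing, so those with more reads, Adgrg1 above all, can weigh more than the rarer ones. The 10 highest were Serpina3g (r = 0.65 and 0.58 in the 2 sets), Tmem176b, Lgals9, Adgrl4, Ripor1, Car2 (0.71 and 0.52), Vamp5, Spns2, Tspan13 (0.74 and 0.51) and Dapp1. The 5 lowest were Elane (−0.77 and −0.73), Gstm1, Hp, Igsf6 and Plac8, and the median over all genes was 0.0093 and 0.0139. Adgrl4 is an adhesion receptor of the same family as Adgrg1, and Car2 is carbonic anhydrase 2. Elane, Gstm1 and Hp are active in maturing neutrophil precursors. On day 14 the sign was the opposite for all 5 lowest genes, over 47 cells. The r values were 0.21 for Elane and Gstm1, 0.14 for Hp, 0.11 for Igsf6 and 0.42 for Plac8. Of the 10 highest, Tspan13 kept 0.61 and Dapp1 0.60, while Car2 had 0.087. The median over all genes was taken for the day 8 sets only. The 12 day 14 cells with none of the 9 genes had a median of 2513 genes per cell. The part of this in the day 14 r values was not tested. Cells of a set share plate and preparation, and these r values are descriptions. Over the 6 summed sets the genes most like the mean of the 9 were Mrpl50 (r = 0.99), Hsph1, Susd1, Pusl1 and Gm43655 among 5570 genes. Susd1 went from 8.53 CPM on day 0 to 31.4 and 42.7 CPM in the day 8 sets and back to 8.73 CPM on day 14. Mrpl50 spanned only 34.2 to 65.1 CPM. Each r rests on 6 values and no r over all genes was taken, so nothing is read from this ranking.

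By the summed levels, the genes passed a cut at 50% of day 8 on different days. On day 10, 6 of the 9 were under 50% of the mean of the 2 day 8 sets: Angpt1 at 20%, Ctla2a at 28%, Procr at 36.3%, Flt3 at 38.4%, Adgrg1 at 47.9% and Msi2 at 49%. Hlf at 58.3%, Myct1 at 66.5% and Selp at 115% were not. Selp passed below 50% by day 12, at 34.1%. Myct1 and Hlf passed it only by day 14, at 5.39 and 23.2%. The cut does not separate the genes. Day 10 against day 8 on the log2 scale was −0.59 (SE 0.55) for Myct1 and −0.78 (SE 0.61) for Hlf. It was −1.03 (SE 0.46) for Msi2 and −1.06 (SE 0.27) for Adgrg1. Without its richest cell, Myct1 stood at 52.5% on day 10 and 50.3% on day 12. With cells of at least 200000 reads and 2000 genes, Hlf was at 49.3% on day 10.

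The return was not the same for all. Adgrg1, Ctla2a and Procr went down at each step, to 23.8, 1.76 and 0% on day 14. Angpt1 went from 20% on day 10 to 105% on day 12 and 5.32% on day 14, and after thinning to 50000 reads from 21.4 to 65.1 and 4.97%. The thinned value of Ctla2a on day 12 was 7.10% in place of 22.5%. Msi2 and Flt3 stood at 48.1 and 32.9% on day 12 and at 96.4 and 60.1% on day 14, the 2 genes not under 50% there. Flt3 was under 50% on day 14 after thinning, at 32.7%, without its richest cell, at 34.6%, with no cell filter, at 35%, and without the first day 8 set, at 49.2%. Msi2 on day 12 was at 38.6% without the first and 63.8% without the second day 8 set. When every cell was thinned to 50000 reads, 3 genes and not 6 were under 50% on day 10, with Procr at 58%, Flt3 at 60.1% and Msi2 at 51.4%. The cause was not tested, and without the richest cell of each gene all 3 were under 50% there.

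Test results for the 9 genes are read only from contrasts that use neither day 0 nor day 8. Between days 10 and 12, Angpt1 rose by 2.39 on the log2 scale (SE 0.42, edgeR quasi-likelihood adjusted p = 0.000466; adjusted p from 0.000156 to 0.915 over 10 alternatives, 9 of which called it). It was 1 of 9 genes called higher, against 0.211% of 15145 tested genes called higher and 0.337% called lower. The other 8 were not called: Selp at −1.75 (SE 0.64) had an adjusted p of 0.311, and the rest lay between −1.23 for Procr and 1.09 for Myct1. The median of the 9 was −0.10 against 0.0015 for all genes. The day 12 set is female and the day 10 set male.

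Between days 10 and 14, both male sets, 5 of the 9 genes fell, against 2.43% of tested genes called lower and 3.42% called higher. Ctla2a fell by 3.98 (SE 0.72, edgeR adjusted p = 0.000149), and with 3 reads on day 14 its ratio of day 10 to day 14 was 15.9 with a counting interval of 5.40 to 77.5. Myct1 fell by 3.61 (SE 0.98, adjusted p = 0.0165) on 2 reads on day 14, a ratio of 12.3 with an interval of 3.36 to 103. Angpt1 fell by 1.91 (SE 0.58, adjusted p = 0.0371), Adgrg1 by 1.01 (SE 0.31, adjusted p = 0.0419) and Selp by 2.30 (SE 0.74, adjusted p = 0.0494). The last 3 lay near the threshold, and over 9 alternatives Adgrg1 was called in 4, Angpt1 in 5, Selp in 3, Myct1 in 4 and Ctla2a in 8. Hlf at −1.33, Msi2 at 0.97 and Flt3 at 0.65 were not called, with adjusted p of 0.366, 0.277 and 0.447, nor was Procr, with 0 reads on day 14 and an adjusted p of 0.236. Procr passed the filter on low counts only through the second day 8 set, where 10.8% of cells held a read without thinning. The median of the 9 was −1.91 against −0.06 for all genes.

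Between days 12 and 14, 3 of the 9 genes fell, against 1.26% of tested genes called lower and 1.98% called higher. Angpt1 fell by 4.30 (SE 0.56, edgeR adjusted p = 1.99e-07; 1.28e-10 to 0.50 over 9 alternatives). Myct1 fell by 4.70 (SE 0.95, adjusted p = 0.00124), a ratio of 26.3 with an interval of 7.18 to 218, and Ctla2a by 3.66 (SE 0.73, adjusted p = 0.00104), a ratio of 12.8 with an interval of 4.29 to 62.5. Adgrg1 at −0.91 and Hlf at −2.41 were not called, with adjusted p of 0.0956 and 0.105. Selp at −0.55, Msi2 at 1.0 and Flt3 at 0.87 were not called either. Ctla2a and Myct1 rest on 3 and 2 reads on day 14, from 1 and 2 cells of a set of 47 cells. On day 12, 1 cell held 70.7% of the Myct1 reads and 1 cell held 43.9% of the Ctla2a reads, which the counting intervals do not cover. Each of these 2 genes was called in 7 of 9 alternatives. When cells were thinned to 50000 reads, edgeR called 0 of 12197 tested genes in the contrasts of days 12 and 10, 14 and 10, and 14 and 12, with 429, 1493 and 1189 genes at an unadjusted p under 0.05.

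Other stem cell genes were read from lists that do not hold the 9. Of 43 listed, 34 were tested. Between days 0 and 8 the edgeR test called 8 higher and 1 lower, beside the 2.61 and 3.02% of all tested genes. The median of the 34 was 0.26 against 0.0095 for all genes. Esam, with 0 reads on day 0, and Hoxa10, with 1 read, passed the filter on low counts through other sets. A call lower on day 8 was thus not open to them. The lists were also chosen with earlier results of these data known, so the count is a description. Among the transcription factors, Hoxa10 rose by 4.39 (SE 1.38, adjusted p = 0.0462), Gfi1b by 3.13 (SE 0.67, adjusted p = 0.00192), Hoxa9 by 1.67 (SE 0.37, adjusted p = 0.00288) and Gata2 by 1.39 (SE 0.32, adjusted p = 0.00463). Hoxa9 and Hoxa10 are homeobox factors of stem cells and early myeloid progenitors, and Gfi1b is a repressor of stem, erythroid and megakaryocyte cells. Hoxa10 had 1 read on day 0, against 35 and 47 on day 8. Prdm16, another stem cell factor, fell by 0.95 (SE 0.27, adjusted p = 0.0260).

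Of the surface and other stem genes, Ifitm1, an interferon-inducible membrane protein, rose by 3.98 (SE 0.36, edgeR adjusted p = 8.15e-12), from 39.1 CPM on day 0 to 437 and 798 CPM in the day 8 sets. Esam, an adhesion molecule of stem cells, had 0 reads on day 0 and 78 and 122 on day 8, at least 18.4-fold higher against a floor of 3 reads. Cd9 rose by 0.99 (SE 0.31, adjusted p = 0.0452). Mecom, Meis1 and the other 23 tested genes were not called.

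Later contrasts moved these genes in both directions. Ifitm1 fell by 3.78 (SE 0.37, edgeR adjusted p = 2.03e-10) between days 10 and 12, at the step where Angpt1 rose. Between days 10 and 14, Gata2 fell by 1.90 (SE 0.45, adjusted p = 0.00496) and Gfi1b fell by 4.93 (SE 1.12, adjusted p = 0.00322) on 1 read on day 14, while Meis1 rose by 1.58 (SE 0.35, adjusted p = 0.00273) and Prdm16 by 1.38 (SE 0.33, adjusted p = 0.00524). In all 4 of the 34 were called lower there and 2 higher. Of the 9 listed partners and relatives of the 9 genes, 7 were tested, and Ctla2b came nearest to a call between days 0 and 8, at 2.22 (SE 0.74, edgeR adjusted p = 0.0670). F2r, the thrombin receptor that activated protein C bound to the Procr product can cleave, had 151 reads on day 10 but 1 by day 12 and 0 by day 14. It was called lower in both contrasts with day 10 (edgeR adjusted p = 0.00173 and 0.00621).

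Lineage markers also changed over the days, the granulocyte and monocyte lists against the 9 genes and the erythroid list with them. The granulocyte list summed to 36948 and 28282 CPM in the day 8 sets and to 77344 to 82714 CPM in the other sets. Of its 8 genes, 5 were called lower on day 8 than on day 0, against 3.02% of all tested genes. The monocyte list summed to 6045 CPM on day 0, 1232 and 514 CPM in the day 8 sets, 1758 CPM on day 10, 4884 CPM on day 12 and 5934 CPM on day 14, again with 5 of 8 called lower on day 8. The erythroid list summed to 23.1 CPM on day 0, 146 and 176 CPM in the day 8 sets, 55.8 CPM on day 10, 15.1 CPM on day 12 and 10.2 CPM on day 14. Klf1, Car1 and Hbb-bt were at 0 on day 0. Of this list 4 of 7 genes were tested (Car2, Gata1, Klf1 and Hbb-bt), and all were called higher on day 8, against 2.61% of all tested genes. Klf1 and Hbb-bt, with 0 reads on day 0, could only be called higher. Hbb-bt stood at 4.09 CPM in the first day 8 set but at 0.397 CPM in the second, below day 10 (0.504 CPM) and day 14 (0.749 CPM). The mast cell and basophil list did not follow the 9 genes. It summed to 418, 505, 390, 314, 332 and 268 CPM in the order of days and sets. In the same order the megakaryocyte list summed to 19.8, 22.3, 46.1, 16.3, 29.5 and 30.9 CPM. The lymphoid list summed to 12.3, 10, 39.8, 6.98, 7.45 and 21 CPM. Malat1 and Neat1, 2 nuclear RNAs, were both called lower on day 8 than on day 0. The part of these differences in the levels of the 9 genes was not tested.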

How the data were processed

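Single GMPs were sorted into wells and made into Smart-seq2 and Nextera XT libraries, which do not mark strand, per the labels' protocols. The authors deposited unnormalized whole-number counts of reads for every gene and cell, made with GSNAP and HTSeq 0.5.3p3 on mm10, per the submitters' processing notes. The labels list 574 cells, 573 of them with a column that names them, and 1 further column stayed unused. The 5 rows that name no gene took a median of 91.1% of a cell's reads and were left out, as were 92 spike-in rows. Gene IDs were matched to GENCODE vM21 symbols (45143 of 46078), and no cells had identical counts (0 pairs).

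The 500 kept cells (at least 50000 reads and 1000 genes) were summed within each set. edgeR 4.0.16 (R 4.3.3) was fitted to the 6 sums with TMM factors and a mean per day, and tested by quasi-likelihood F tests with Benjamini-Hochberg adjusted p over 15145 genes, at a threshold of 0.05. These genes passed filterByExpr and had a read in 10% or more of the kept cells of some set. All 9 genes passed, Procr only through the second day 8 set. The fit had 1 residual degree of freedom and 51.5 prior degrees of freedom, so the spread of the day 8 sets stood for that of the other days. CPM were computed from the deposited counts. Shares of cells used counts thinned to 50000 reads, with exact 95% binomial intervals, and a count of 0 was given a limit of 3 counts. Fold changes against 1 to 3 reads were given as ratios with counting intervals.

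The 9 genes and the lists were chosen with earlier results of these data known. Named genes were the 9, up to 4 called genes of a list with the largest change, and the genes most and least like the 9 (10 highest and 5 lowest across cells read in 20% or more of cells of both day 8 sets, 5 highest across sets among genes of at least 32 CPM, on log2 of the value plus 1). Mecom, Meis1, Ctla2b, Gm26597, Tek, Selplg and the sex, gate and RNA quality genes were named beside these, and Malat1 and Neat1 after their values were seen. The tests were tried on simulated data. Alternatives were DESeq2 1.42.0 size factors or Wald test, limma 3.58.1 voom, other gene and cell filters, thinning, each day 8 set left out, the richest cell of each gene left out and Slc34a2 left out, and, added after seeing the data, the day 14 set left out. Tables were made in Python 3.11.15 with pandas 2.3.3 and numpy 2.4.6, intervals with scipy 1.17.1, and plots with matplotlib 3.10.9.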

Additional observations from a re-analysis of the deposited data

How the results depend on the processing

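Of the log2 fold changes of the 9 genes under the alternatives run, 335 were counted as unchanged. These kept their direction and side of the threshold or, for day 8 against day 0 and with a day 8 set left out, moved by no more than the day 8 spread. Of the rest, 27 lost a call, 2 gained one, 17 untested ones moved by more than the day 8 spread and 7 reversed. The cause was not tested. Between days 10 and 12 the reversals were Adgrg1 at 0.0045, Msi2 at 0.33 and Ctla2a at 0.39 with cells of at least 200000 reads and 2000 genes, and Myct1 at −0.55 after thinning to 50000 reads and −0.019 without the richest cell. Flt3 was −0.38 between days 10 and 14 after thinning, and Selp 0.25 between days 12 and 14 without its richest cell. Genes of the 9 called lower on day 14 than on day 10 were 1 with the DESeq2 Wald test, limma voom or the richest cells left out, 3 without Slc34a2 and 0 after thinning, where the other 2 contrasts also gave 0. For other stem genes between days 0 and 8, 5 were higher with the Wald test and with the strict cell filter and 0 after thinning, and 0 were lower with the strict filter, no gene filter or thinning. After thinning, edgeR called 0 of all 12197 tested genes in that contrast, with 1254 at an unadjusted p under 0.05. Genes under 50% of the day 8 mean on day 10 numbered 3 after thinning, and 4 and 5 when a day 8 set was left out, against 6. Cells with at least 3 genes made up 33.7, 76.7, 90.3, 50.5 and 40% of the sets of days 0 to 12 without thinning, 67.5, 79.2, 48.1, 35.4 and 26.7% of those of days 8 to 14 at 100000 reads, and 32.1% on day 12 and 0% on day 14 with the strict filter, which kept 4 cells on day 14. With that filter the median of all genes shifted by −0.52 and −0.45 in the contrasts of day 14 with days 10 and 12. Leaving out a day 8 set left no residual degree of freedom, so no calls were made there. No paired analysis was possible because the numbers in the labels name wells of single cells and days other than 8 had 1 set. Depth limits day 14, with 4849678 reads in 47 cells.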
